A study of Homo sapiens with 12 samples.

Results

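The 10 genes described here are PPARA, PPARD and PPARG, which encode the peroxisome proliferator-activated receptors, and 7 genes of fatty acid handling, ANGPTL4, PLIN2, CPT1A, SLC25A20, CPT2, ACADVL and ACAA2. They were taken by symbol, and their estimated read counts were summed over the annotated transcripts of each gene. All 10 were found among the 43481 genes with a transcript in the tables, and all 10 passed the filter on low counts that left 15263 genes for testing. None of the measured values took part in the choice of symbols, but the set was put together with earlier results of these data known. The series holds poly-A RNA-seq of RPE-1 cells, a human line established from the retinal pigment epithelium, as 3 libraries for each of 4 groups (12 in all). Every group had first spent 24 h in medium without glucose or fetal calf serum (FCS), and the starved group received nothing further. The other cells then received RPMI medium with 10% FCS and 5 g/l glucose for 4 h, together with the solvent DMSO (solvent group), with 100 µM DMA, dimethyl amiloride, an inhibitor of Na+/H+ exchangers (DMA group), or with 10 µM C646, an inhibitor of the acetyltransferases p300 and CBP (C646 group). The series concerns the dependence of cell cycle progression on pH. Libraries were numbered 1 to 3 within each group, and nothing states that they came from separate cultures, so the p-values measure the spread between these libraries only.

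PPARs are nuclear receptors that bind fatty acids and related ligands, pair with a retinoid X receptor and switch on genes of fatty acid transport, oxidation and storage. ANGPTL4 is a secreted inhibitor of lipoprotein lipase and one of the best known PPAR target genes, and its messenger also responds to fasting, hypoxia and glucocorticoids. Long-chain fatty acids enter mitochondria through the carnitine shuttle, in which CPT1A makes the acylcarnitine, SLC25A20 carries it across the inner membrane and CPT2 turns it back into acyl-CoA. ACADVL then starts the beta-oxidation spiral and ACAA2, a thiolase, closes it. PLIN2 coats lipid droplets, where fatty acids are stored as triglyceride. Retinal pigment epithelium is known for burning fatty acids taken up with photoreceptor outer segments.

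The libraries held 14910516 to 28968510 estimated counts, starved library 3 being the shallowest. Levels are given in CPM, a gene's count scaled to the total gene count of its library, and group values are the mean ± SD of 3 libraries. On the second principal component, which held 14.6% of the variance, library 3 of every group stood apart. These libraries lay at -36.7 to -27.6 and all others at -2.66 to 27.1. What sets library 3 apart was not tested. Solvent library 1 stood apart from the other 11 libraries on the third principal component, which held 13.4% of the variance. The 13 markers of retinal pigment epithelium and RPE-1 summed to 5210 to 7650 CPM, carried mainly by VIM. The epithelial transcription factor genes MITF and OTX2 and the mature marker BEST1 were detected, at 52.4, 12.9 and 2.49 CPM on average in starved cells, while RPE65, RLBP1 and TYR, further markers of the mature epithelium, had mean levels of 0 to 0.103 CPM in the 4 groups. Of 6 adipocyte markers, 5 stayed under 1 CPM in every library, and the summed level of the 6 was 3.6 to 6.89 CPM. The summed markers of hepatocytes reached at most 1.38 CPM, of fibroblasts 11.7 CPM, of erythroid cells 0.0859 CPM and of macrophages 82.7 CPM, the last carried by CD68.

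The start regions of the 4 genes with the clearest differences are shown because PPAR target genes are defined by receptor sites in their DNA. The sequences are RefSeq sequences of the build GRCh38.p14, written in the direction of transcription, and hold no base of a GENCODE exon of their gene. The ANGPTL4 stretch lies just before transcript ANGPTL4-201 and inside the gene as annotated, in an intron of 4 transcripts that start farther upstream. Capitals mark GC boxes, GGGCGG on either strand. For ANGPTL4 the sequence covers chr19:8363905-8364150 on the plus strand, for PPARA chr22:46150276-46150520 on the plus strand, for SLC25A20 chr3:48898994-48899132 on the minus strand and for PPARD chr6:35342308-35342557 on the plus strand.
ANGPTL4: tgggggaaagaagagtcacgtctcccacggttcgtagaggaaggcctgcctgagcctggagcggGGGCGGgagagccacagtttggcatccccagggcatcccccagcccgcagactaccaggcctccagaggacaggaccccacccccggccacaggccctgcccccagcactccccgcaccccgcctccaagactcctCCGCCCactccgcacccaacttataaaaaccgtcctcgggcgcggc
PPARA: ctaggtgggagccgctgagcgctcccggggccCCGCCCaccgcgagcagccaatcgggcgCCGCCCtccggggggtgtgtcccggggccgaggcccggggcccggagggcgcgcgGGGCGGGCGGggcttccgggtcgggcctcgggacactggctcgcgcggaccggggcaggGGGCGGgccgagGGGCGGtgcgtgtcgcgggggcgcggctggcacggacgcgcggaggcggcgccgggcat
SLC25A20: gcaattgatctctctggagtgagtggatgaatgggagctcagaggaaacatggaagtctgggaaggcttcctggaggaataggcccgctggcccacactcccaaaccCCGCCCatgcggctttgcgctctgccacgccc
PPARD: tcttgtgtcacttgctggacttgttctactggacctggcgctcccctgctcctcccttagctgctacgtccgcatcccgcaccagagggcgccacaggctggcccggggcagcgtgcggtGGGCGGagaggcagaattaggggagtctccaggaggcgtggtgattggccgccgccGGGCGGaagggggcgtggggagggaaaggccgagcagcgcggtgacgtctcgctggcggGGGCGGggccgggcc
Motifs were counted in the 250 bases before each RefSeq start. The 10 genes had 17 such promoters, since some have several starts. GC boxes were present in 8 of these (47.1%), which belong to 7 genes, and in 42.6% of all 35116 promoters. The PPARA sequence has 6, of which 1 pair overlaps, and its GC content is 84.1%. The exact DR1 element, the direct repeat that a PPAR binds with its retinoid X receptor partner, was absent from all 17 and was found in 0.0171% of promoters. The single receptor site AGGTCA, the repeated unit of that element, was present in 3 of the 17 and in 12.1% of all promoters. All 3 belong to PPARG, and 1 pair of them overlaps and holds the same site. The E-box CACGTG was present in 1 of the 17, that of PLIN2, and in 6.34% of all promoters. These counts concern exact letters in short windows only, and the known PPAR element of ANGPTL4 lies in an intron, outside the window shown.

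Serum and glucose were first compared with starvation. ANGPTL4 and SLC25A20 rose, PPARA fell, and PPARD, PPARG, PLIN2, CPT1A, CPT2, ACADVL and ACAA2 did not pass the threshold. The test was edgeR's quasi-likelihood F-test with Benjamini-Hochberg adjustment over 15263 genes and a threshold of 0.05. The 3 genes called of 10 stand beside 24.3% of all genes tested, of which 12.6% were higher and 11.7% lower. The median log2 fold change was 0.19 over the 10 genes and 0.00 over all genes. The libraries of the groups did not overlap for 5 of the 10 genes (ANGPTL4, PPARA, CPT1A, CPT2 and SLC25A20), and for 40.4% of all genes. Scaling to the spike-in controls in place of the gene counts moved the median of all genes to 0.60 and the genes called from 1921 higher and 1783 lower to 3227 higher and 189 lower. Under it 3 of the 10 were called, beside 22.4% of all genes, all 3 higher, with CPT2 in place of PPARA. The corresponding medians were 0.22 for DMA and 0.13 for C646 against solvent, 0.10 for DMA against C646, and 0.81 for DMA and 0.73 for C646 against starved cells.

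**Figure D1:**
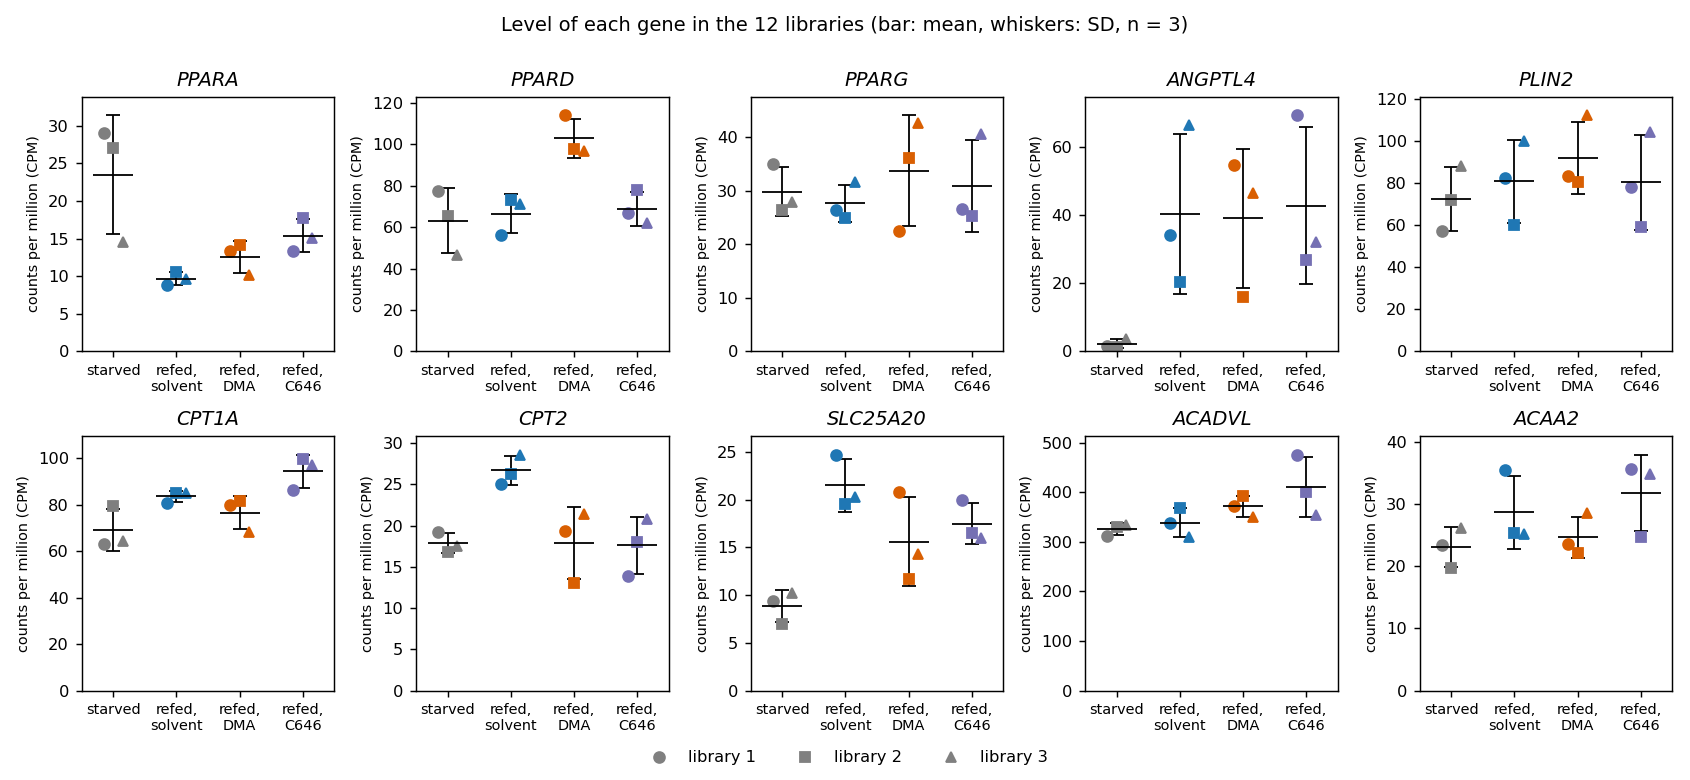
Level of each of the 10 genes in CPM (vertical axes from 0, scaled to each gene) in the 4 groups on the horizontal axes, with "refed" for cells given serum and glucose. Symbols are single libraries by number, horizontal bars the mean and whiskers the SD of 3 libraries. ANGPTL4 lies at 1.18 to 3.72 CPM in starved cells and at 15.9 to 69.2 CPM in the other 9 libraries, and PPARD is at 96.8 to 114 CPM with DMA against 46.3 to 78.1 CPM elsewhere.

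Among the receptors, PPARA measured 29, 27.1 and 14.5 CPM in starved libraries 1, 2 and 3, and 8.77, 10.5 and 9.62 CPM in solvent libraries 1, 2 and 3. All 3 starved libraries lay above all 3 solvent libraries, but starved library 3, also the shallowest library, lay far nearer to them than the other starved libraries did, and the part of its depth in this was not tested. PPARA, the receptor that drives fatty acid oxidation in fasted liver, was 2.49-fold lower with serum and glucose (log2 fold change -1.32 ± 0.23 SE, edgeR adjusted p = 0.0012). In bulk RNA, less RNA per cell cannot be told apart from fewer cells that make it. The call held in all 6 fits that left out 1 library, with log2 fold changes of -1.55 to -1.14, and the value without solvent library 1 was -1.26. With spike-in scaling PPARA was at -0.66 (edgeR adjusted p = 0.17), below the median of all genes of 0.60.

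PPARD, the receptor form found in most tissues, measured 77.7, 65.3 and 46.3 CPM in starved and 56, 72.9 and 71 CPM in solvent libraries. PPARG, the receptor that drives adipocyte differentiation, measured 35, 26.4 and 27.9 CPM in starved and 26.4, 24.9 and 31.5 CPM in solvent libraries. The groups overlapped for both, and the log2 fold changes were 0.05 for PPARD (95% interval -0.30 to 0.40) and -0.14 for PPARG (95% interval -0.64 to 0.36). The transcripts that carried PPARG were mainly PPARG-207 (62.1% ± 10.4 of its counts in starved and 55.1% ± 14.5 in solvent cells) and PPARG-202 (20.2% ± 11.6 and 24.3% ± 6.73). PPARG-201 starts farther downstream, at base 12351472 of chromosome 3. It held 0, 2.43 and 9.26% in starved libraries 1, 2 and 3 (mean 3.9% ± 4.8) and 0% in every solvent library. Estimates for transcripts of 1 gene share reads and are not independent.

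ANGPTL4 measured 1.62, 1.18 and 3.72 CPM in the starved libraries and 34.2, 20.4 and 66.4 CPM in the solvent libraries. The lowest solvent library was well above the highest starved library. The rise was 19-fold (log2 fold change 4.25 ± 0.67 SE, 95% interval 2.78 to 5.71, edgeR adjusted p = 0.00096). Library 2 was the lowest of its group in all 4 groups. Ratios of solvent to starved CPM under the same number were 21.1, 17.3 and 17.8. Without solvent library 1 the log2 fold change was 4.35, and over all 6 fits that left out 1 library it ran from 3.69 to 4.84. Transcript ANGPTL4-201 held 70.7% ± 27.7 of the gene's counts in starved and 77.8% ± 7.87 in solvent cells. The protein-coding transcript ANGPTL4-202 held practically none of the starved counts and 7.13% ± 1.48 in solvent cells, but the starved libraries gave only 34.7, 21.9 and 22 counts to ANGPTL4-201 itself.

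SLC25A20, the carnitine-acylcarnitine carrier, measured 9.37, 6.96 and 10.2 CPM in the starved libraries and 24.7, 19.5 and 20.3 CPM in the solvent libraries. Both groups were tight and did not overlap. The rise was 2.38-fold (log2 fold change 1.25 ± 0.23 SE, edgeR adjusted p = 0.002), and without solvent library 1 the log2 fold change was 1.13. Leaving out single libraries gave 1.09 to 1.39, past the threshold each time.

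The enzymes on either side of this carrier were higher in all 3 solvent than in all 3 starved libraries but missed the threshold. CPT2 measured 19.2, 16.8 and 17.5 CPM in starved and 25.1, 26.3 and 28.6 CPM in solvent libraries (log2 fold change 0.55 ± 0.19 SE, edgeR adjusted p = 0.054). It passed under 6 of the alternative settings, among them DESeq2's Wald test (adjusted p = 0.032), and in none of the fits without 1 library. CPT1A, the rate-limiting enzyme of the shuttle, measured 63, 79.3 and 64.3 CPM in starved and 80.9, 84.8 and 85.2 CPM in solvent libraries, a log2 fold change of 0.25 ± 0.11 SE (edgeR adjusted p = 0.12).

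The first and last enzymes of the oxidation spiral and the droplet protein overlapped between the groups. ACADVL measured 313, 331 and 334 CPM in starved and 338, 368 and 309 CPM in solvent libraries. ACAA2 measured 23.4, 19.7 and 26.1 CPM in starved and 35.5, 25.4 and 25.2 CPM in solvent libraries, with 1 solvent library above the rest. PLIN2 measured 57.3, 71.9 and 88 CPM in starved and 82.1, 60.2 and 99.7 CPM in solvent libraries, nearly as wide a range within each group as over both. The 95% intervals of the log2 fold changes were -0.24 to 0.29 for ACADVL, -0.14 to 0.71 for ACAA2 and -0.39 to 0.64 for PLIN2.

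**Figure D2:**
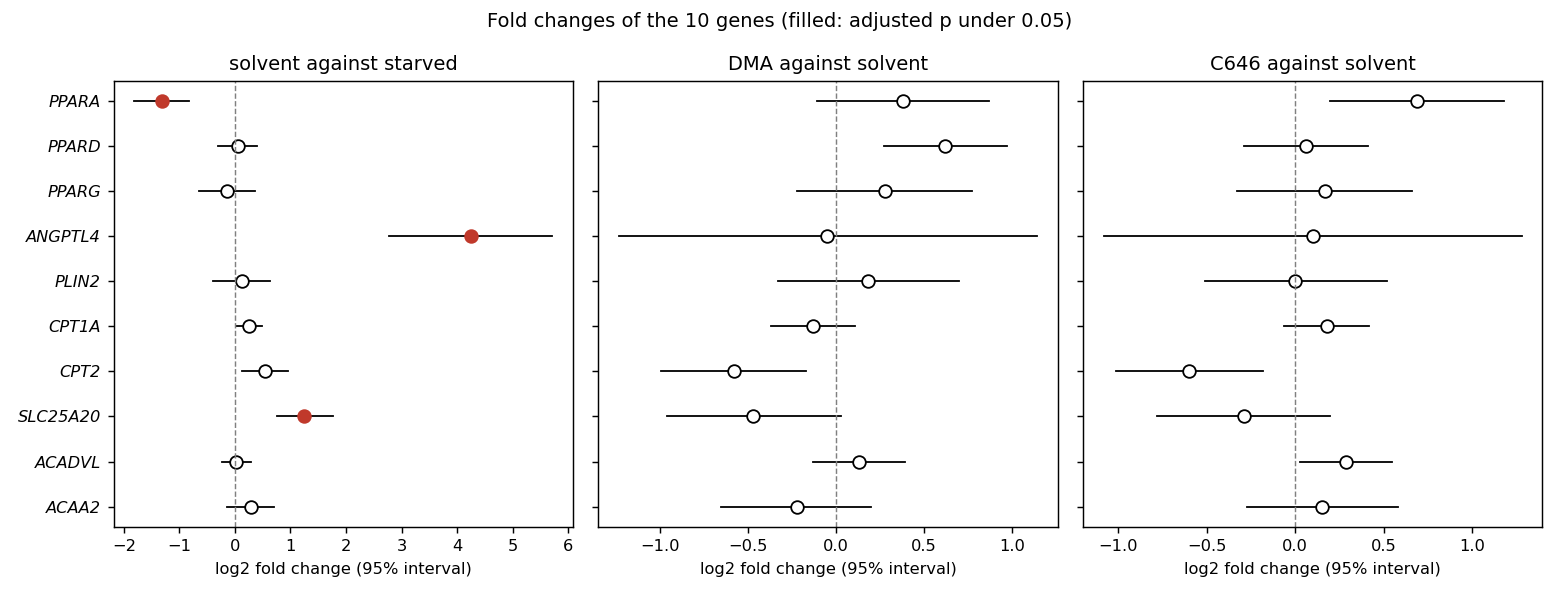
Log2 fold changes (horizontal axes, with 95% intervals; the first panel spans a wider range than the others) of the 10 genes for solvent against starved cells and for each inhibitor against solvent. Filled points have an edgeR adjusted p under 0.05. Only ANGPTL4, PPARA and SLC25A20 are filled, all in the first panel, and the largest value with DMA is PPARD at 0.62.

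DMA was compared with solvent during the same stimulation. None of the 10 genes passed edgeR's adjusted threshold, where 1.75% of all genes did (0.734% higher and 1.02% lower), and 2 had an unadjusted p under 0.05, PPARD and CPT2. The libraries did not overlap for these 2 genes and for 23.2% of all genes. The median log2 fold change was 0.04 over the 10 genes and 0.01 over all genes. DESeq2's Wald test called 1 of the 10, PPARD, and 7.08% of all genes.

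PPARD measured 114, 97.7 and 96.8 CPM with DMA, above all 9 other libraries of the series, whose highest value was 78.1 CPM. Against solvent it was 1.54-fold higher (log2 fold change 0.62 ± 0.16 SE, 95% interval 0.27 to 0.97, edgeR adjusted p = 0.071). With the library number as a block, which pairs these groups, the value was 0.61 ± 0.15 SE and passed (edgeR adjusted p = 0.025). Without solvent library 1 it was 0.52 (edgeR adjusted p = 0.26), and no fit without 1 library passed. The counts of PPARD came mostly from transcript PPARD-203, with 85.6% ± 0.653 in solvent and 80.7% ± 6.83 in DMA cells.

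CPT2 measured 19.3, 13 and 21.4 CPM with DMA, all below the solvent libraries and around the starved ones. Its log2 fold change against solvent was -0.58 ± 0.19 SE (edgeR adjusted p = 0.13), and with the library number as a block it was -0.60 ± 0.16 SE and passed (edgeR adjusted p = 0.037). Without solvent library 1 it was -0.61 (edgeR adjusted p = 0.27). SLC25A20 measured 20.8, 11.7 and 14.3 CPM with DMA, overlapping with solvent through library 1 alone, at a log2 fold change of -0.47 ± 0.23 SE (edgeR adjusted p = 0.28).

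ANGPTL4 measured 54.6, 15.9 and 46.5 CPM with DMA, which overlapped with the solvent libraries. Its log2 fold change against solvent was -0.05, with a wide 95% interval of -1.23 to 1.14. PPARA measured 13.4, 14.1 and 10.1 CPM with DMA, of which library 3 lay within the solvent range (log2 fold change 0.38 ± 0.23 SE, edgeR adjusted p = 0.39). PPARG ranged widely, with 22.4, 36 and 42.6 CPM. The remaining genes overlapped with solvent and lay within 0.22 of 0 on the log2 scale. CPT1A measured 79.9, 81.5 and 68.3 CPM, ACADVL 373, 393 and 351 CPM, ACAA2 23.6, 22.2 and 28.5 CPM, and PLIN2 83.2, 80.5 and 112 CPM.

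C646 was compared with the same solvent libraries, so the values for both inhibitors share their control. None of the 10 genes passed edgeR's adjusted threshold, where 1.21% of all genes did (0.812% higher and 0.4% lower), and DESeq2 called none of the 10 and 5.84% of all genes. PPARA, CPT2 and ACADVL had an unadjusted p under 0.05. The libraries did not overlap for PPARA, CPT1A and CPT2, and for 22.1% of all genes. The median log2 fold change was 0.13 over the 10 genes and 0.01 over all genes.

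PPARA measured 13.4, 17.7 and 15.1 CPM with C646, above all 3 solvent libraries and, in library 2 and library 3, above starved library 3. It was 1.61-fold above solvent (log2 fold change 0.69 ± 0.23 SE, edgeR adjusted p = 0.14), and with the library number as a block it passed (0.69 ± 0.19 SE, edgeR adjusted p = 0.04). CPT2 measured 13.9, 18 and 20.8 CPM, below all solvent libraries, with a log2 fold change of -0.60 ± 0.19 SE (edgeR adjusted p = 0.13) and, with the block, of -0.60 ± 0.16 SE (edgeR adjusted p = 0.041). Without solvent library 1 these values were 0.63 for PPARA and -0.63 for CPT2, with edgeR adjusted p of 0.42 and 0.32.

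ANGPTL4 measured 69.2, 26.8 and 32.1 CPM with C646, with library 1 alone above the solvent libraries. Its log2 fold change was 0.10 (95% interval -1.08 to 1.28). CPT1A measured 86.4, 99.8 and 96.9 CPM, just above the solvent libraries (log2 fold change 0.18 ± 0.11 SE, edgeR adjusted p = 0.43). ACADVL measured 476, 401 and 355 CPM, overlapping with solvent through library 3 (log2 fold change 0.29 ± 0.12 SE, edgeR adjusted p = 0.25). PPARD (66.9, 78.1 and 62.1 CPM), PPARG (26.5, 25.2 and 40.6 CPM), SLC25A20 (20, 16.5 and 16 CPM), PLIN2 (77.9, 59 and 104 CPM) and ACAA2 (35.7, 24.7 and 34.9 CPM) overlapped with solvent.

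The inhibitor groups were then compared directly, at 100 µM DMA and 10 µM C646 and the same time. The doses differ, so this compares the groups and not equal exposures. None of the 10 genes passed in edgeR's adjusted test, where 2.89% of all genes did (0.943% higher and 1.95% lower with DMA), and PPARD and CPT1A had an unadjusted p under 0.05 and libraries that did not overlap, as 22% of all genes did. PPARD was 1.47-fold higher with DMA than with C646 (log2 fold change 0.56 ± 0.16 SE, edgeR adjusted p = 0.086). It passed with the library number as a block (edgeR adjusted p = 0.034) and in DESeq2's Wald test (adjusted p = 0.028), which called no other of the 10 and 6.84% of all genes. CPT1A was lower with DMA by a log2 fold change of -0.32 ± 0.11 SE (edgeR adjusted p = 0.16). For CPT2, which was below solvent in both groups, the difference between the inhibitors was 0.02 (95% interval -0.40 to 0.43).

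Each inhibitor group was also compared with starved cells, which are shared between these comparisons and with the first one. With DMA, 4 of the 10 genes passed beside 26.9% of all genes (13.9% higher and 13% lower). With C646, 3 of the 10 passed beside 24.6% of all genes (12.9% higher and 11.7% lower). The libraries did not overlap for 5 of the 10 with DMA (the 4 called and ACADVL), beside 42% of all genes, and for 4 with C646 (the 3 called and ACADVL), beside 41%. The median log2 fold changes over the 10 were 0.15 with DMA and 0.22 with C646. ANGPTL4 was 18.3-fold higher with DMA and 20.3-fold higher with C646 (log2 fold changes 4.20 and 4.35, each ± 0.67 SE, edgeR adjusted p = 0.00096 and 0.00086). All 3 stimulated groups held ANGPTL4 far above the starved libraries, whichever compound was present.

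PPARA was 1.92-fold lower with DMA than in starved cells (log2 fold change -0.94 ± 0.23 SE, edgeR adjusted p = 0.0081). With spike-in scaling 8 of the 10 genes were called with DMA, beside 43.1% of all genes, and 6 with C646, beside 34.2% of all genes, and each of these calls was higher. The PPARA call was lost with spike-in scaling (-0.10, edgeR adjusted p = 0.83) and with a correction for effective transcript length (-0.79, edgeR adjusted p = 0.1). With C646 the PPARA difference from starved cells was -0.63 ± 0.22 SE (edgeR adjusted p = 0.055), and it passed with the library number as a block (-0.60 ± 0.18 SE, edgeR adjusted p = 0.021). Without starved library 3, the starved library with the lowest PPARA, it was -0.87 (edgeR adjusted p = 0.0062). This was the only 1 of the 6 fits without 1 library that passed. Over these fits the value ran from -0.87 to -0.46, with edgeR adjusted p up to 0.22 without starved library 1. With spike-in scaling the sign turned, at 0.15 (edgeR adjusted p = 0.76) beside a median of all genes of 0.73.

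PPARD was 1.59-fold higher with DMA than in starved cells (log2 fold change 0.67 ± 0.17 SE, edgeR adjusted p = 0.0092), and it passed in all 6 fits without 1 library. For C646 against starved cells its log2 fold change was 0.11 ± 0.16 SE (edgeR adjusted p = 0.67).

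SLC25A20 was 1.72-fold higher with DMA (log2 fold change 0.79 ± 0.23 SE, edgeR adjusted p = 0.024) and 1.95-fold higher with C646 (0.96 ± 0.23 SE, edgeR adjusted p = 0.0096) than in starved cells. The DMA call was lost without starved library 1, starved library 2 or DMA library 1 (edgeR adjusted p = 0.057, 0.11 and 0.13) and with the length correction (0.067). CPT1A rose 1.35-fold with C646 (log2 fold change 0.43 ± 0.11 SE, edgeR adjusted p = 0.013), a call lost without starved library 1 (0.37, edgeR adjusted p = 0.059) or C646 library 2 (0.40, edgeR adjusted p = 0.051). With the library number as a block, ACADVL (0.30, edgeR adjusted p = 0.041) and ACAA2 (0.43, edgeR adjusted p = 0.034) also passed for C646, which made 6 genes called of 10, beside 36.2% of all genes called with the block. CPT2 lay at -0.03 with DMA and -0.05 with C646, level with starved cells, with 95% intervals of -0.45 to 0.38 and -0.46 to 0.37.

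Levels were compared between genes on the TPM scale, which corrects for transcript length. ACADVL was the most abundant of the 10 in every group, at 425 ± 34.7 TPM in starved, 461 ± 82.4 in solvent, 566 ± 91.4 in DMA and 495 to 793 TPM in C646 cells, without overlap with the next gene. These sums include transcripts not annotated as protein coding. The retained-intron transcript ACADVL-230 held 75.4 TPM in starved and 96.1 TPM in C646 cells. The largest protein-coding transcript, ACADVL-205, held 86.5 and 64.2 TPM. PLIN2 came next, at 55.2 ± 10.5 TPM in starved and 63.4 ± 16 TPM in solvent cells. ANGPTL4 was last in starved cells at 2.23 ± 1.66 TPM, its range touching that of PPARA, and at rank 3 in solvent cells at 43 ± 20.4 TPM, its range touching PLIN2 above and PPARD below. PPARA was last in all 3 stimulated groups, at 2.36 ± 0.622 TPM in solvent, 3.46 ± 1.04 TPM in DMA and 5.37 ± 0.367 TPM in C646 cells, and did not overlap with the gene above it. Between these, the ranges of PPARD, ACAA2, PPARG and CPT1A overlapped from each gene to the next in solvent cells, from 25.8 ± 3.2 down to 22.9 ± 1.42 TPM. In each stimulated group the receptor levels ran from PPARD over PPARG to PPARA, with overlapping ranges of PPARD and PPARG in solvent and C646 cells but not in DMA cells, whose lowest PPARD library (35.7 TPM) was above the highest PPARG library (33.4 TPM).

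The transcript classes behind the sums differed between genes. CPT1A and PPARD counts were almost entirely from transcripts annotated as protein coding, while ACADVL and CPT2 were mixed. ANGPTL4 was mixed in starved cells, with coding shares of 93.8, 78.4 and 40% in libraries of only 37, 28 and 55 counts for this gene. Counted over protein-coding transcripts alone, ANGPTL4 measured 1.31 ± 0.334 CPM in starved and 35.9 ± 24 CPM in solvent cells. For ACADVL the protein-coding share was 52.7% ± 4.92 in starved, 47.6% ± 10.4 in solvent, 38.9% ± 9.15 in DMA and 37.6% ± 8.21 in C646 cells, and transcripts with a retained intron held 34.5% ± 4.31, 41.7% ± 11, 43.9% ± 8.99 and 48.1% ± 9.03. The coding shares of the starved libraries (47.6 to 57.4%) lay above those of the C646 libraries (32.1 to 47%) and overlapped with those of the other groups. No test was run on shares. Counted over protein-coding transcripts alone, ACADVL measured 172 ± 18 CPM in starved, 159 ± 21 in solvent, 144 ± 28.1 in DMA and 151 ± 16.2 in C646 cells. The sign of its log2 fold change turned with this choice, from 0.31 to -0.22 for C646 against starved cells and from 0.29 to -0.06 for C646 against solvent. CPT2 carried 44.1% ± 6.33 of its counts in starved and 55.4% ± 8.7 in solvent cells on transcripts annotated for nonsense-mediated decay, mostly on CPT2-212 (40.2% ± 3.47 and 55.4% ± 8.7). Its protein-coding transcripts measured 9.79 ± 1.33 CPM in starved and 11.8 ± 3 CPM in solvent cells and overlapped between these groups.

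**Figure D3:**
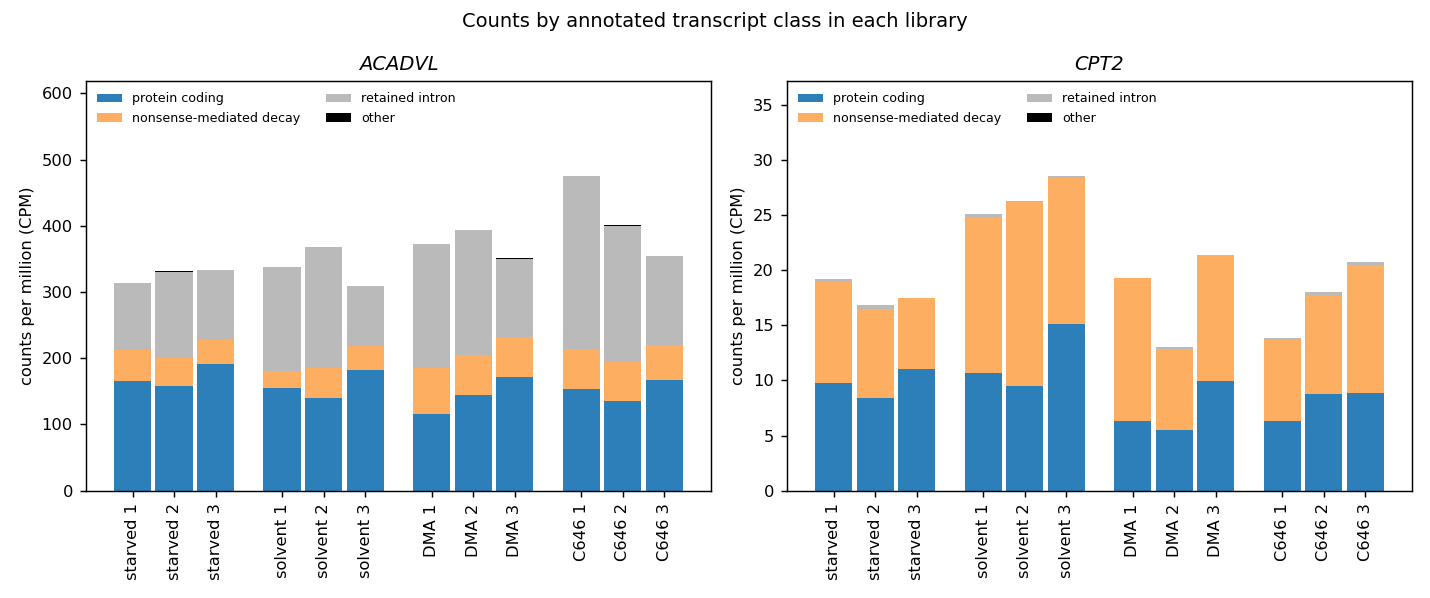
CPM of ACADVL and CPT2 (vertical axes) in each of the 12 libraries (horizontal axes), split by the annotated class of their transcripts. The bar heights are the gene totals. The grey retained-intron part of ACADVL is 34.5% of the counts on average in starved and 48.1% in C646 cells, and decay transcripts hold 44.1% of CPT2 on average in starved and 59% in DMA cells.

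On the chromosomes, in GRCh38 and the GENCODE 29 annotation, ANGPTL4 lies at chr19:8363289-8374373 on the plus strand, PPARA at chr22:46150521-46243756 on the plus strand, PPARD at chr6:35342558-35428191 on the plus strand and SLC25A20 at chr3:48856931-48898993 on the minus strand. At most 12% of the exon bases of any of the 10 genes overlapped another gene on the opposite strand (CPT2, with C1orf123 and AL606760.2), and at most 10.5% of the 31-base words occurred in another gene (ACAA2). No source used here gives the strand setting of the counting, so reads from the overlapped part of CPT2 cannot be assigned with certainty. On the same strand 7.59% of the exon bases of ACAA2 overlapped AC090227.1, and reads from these bases are uncertain under any strand setting.

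The genes around these pathways were described from lists in the same fits. The list of PPAR partners and coregulators had 16 of 18 genes tested. For solvent against starved cells none rose and 3 fell, NCOA2 (-1.13), NCOA3 (-0.66) and the lipin LPIN1 (-0.62, all log2 fold changes). These were 18.8% of the 16, beside 24.3% of all genes called (12.6% higher and 11.7% lower). NCOA2, a coactivator of nuclear receptors, measured 36.5, 44.5 and 34 CPM in starved and 18.3, 18.4 and 17 CPM in solvent libraries. The list's median was -0.11. The retinoid X receptors RXRA (31.5 ± 4.39 CPM in starved and 23.6 ± 4.08 CPM in solvent cells) and RXRB (66.3 ± 6.94 and 53.2 ± 8.7 CPM) were present, while RXRG had 0 counts in all 12 libraries. With spike-in scaling 2 genes of the list rose, none fell and its median was 0.52. All genes then had a median of 0.60, with 22.4% called (3227 higher and 189 lower).

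NRIP1, a corepressor of nuclear receptors, was the only member of that list called for DMA against C646 (6.25% of the 16, beside 2.89% of all genes). It measured 100, 140 and 149 CPM with DMA and 54.7, 51 and 55.2 CPM with C646, beside 86.1, 78.8 and 111 CPM with solvent. It was 2.39-fold higher with DMA than with C646 (log2 fold change 1.26 ± 0.17 SE, edgeR adjusted p = 0.003), and this passed in all 6 fits without 1 library. Against solvent it fell with C646 (log2 fold change -0.77 ± 0.17 SE, edgeR adjusted p = 0.046), where NCOA3 rose (0.53 ± 0.11 SE, edgeR adjusted p = 0.04). These 2 were 12.5% of the 16 tested, beside 1.21% of all genes. Both of those calls were lost in every fit without 1 library, with adjusted p up to 0.13 for NRIP1 without solvent library 1 and up to 0.16 for NCOA3 without C646 library 1. With spike-in scaling NRIP1 was at 1.39 for DMA against C646 (edgeR adjusted p = 0.0078).

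The list of the ANGPTL family and the lipoprotein lipase system had 10 of 20 genes tested. Of these, 1 rose and 6 fell with serum and glucose (70% called, beside 24.3% of all genes), at a list median of -0.73. LPL itself, the enzyme that ANGPTL4 inhibits, had 0 counts in all 12 libraries, as had ANGPTL7, where 3 counts correspond to 0.105 to 0.203 CPM. SEL1L, part of a degradation complex of the endoplasmic reticulum that lipoprotein lipase needs for its maturation, measured 780, 572 and 516 CPM in starved and 168, 154 and 229 CPM in solvent libraries, a 3.46-fold fall (log2 fold change -1.79 ± 0.23 SE, edgeR adjusted p = 0.00019). The receptors LRP1 (-1.12) and VLDLR (-1.10), the relative ANGPTL2 (-0.79) and the endothelial lipase gene LIPG (-0.67) fell as well. CD36, a fatty acid transporter, rose from 1.79 ± 0.207 to 3.75 ± 0.866 CPM (log2 fold change 1.03 ± 0.32 SE, edgeR adjusted p = 0.03) and passed in only 1 of 6 fits without 1 library, with an adjusted p up to 0.11 without starved library 2. Calls for LRP1 and LIPG were lost in 3 and 4 of these fits, with adjusted p up to 0.058 without starved library 1 and 0.12 without starved library 2. With spike-in scaling 1 gene of the list rose, CD36, and 1 fell, SEL1L (-1.17, edgeR adjusted p = 0.0068). That scaling called 22.4% of all genes (3227 higher and 189 lower). LIPG was 2.19-fold lower with DMA than with C646 (log2 fold change -1.13 ± 0.21 SE, edgeR adjusted p = 0.014), a call lost in 3 of 6 such fits (adjusted p up to 0.06 without DMA library 3).

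Other PPAR target genes numbered 25, of which 16 were tested. For solvent against starved cells 5 rose and 1 fell (37.5% called, beside 24.3% of all genes), with a list median of 0.15. TXNIP, a glucose-responsive regulator of thioredoxin, rose from 8.26 ± 0.727 to 48.1 ± 29.5 CPM (log2 fold change 2.51 ± 0.61 SE, edgeR adjusted p = 0.011), a call lost without solvent library 3 (edgeR adjusted p = 0.05). G0S2, an inhibitor of the lipase ATGL, measured 16.9, 8.57 and 14.9 CPM in starved and 57, 40.3 and 106 CPM in solvent libraries (log2 fold change 2.30 ± 0.50 SE, edgeR adjusted p = 0.006). HILPDA, another ATGL inhibitor, rose by 1.17, the fatty acid binding protein gene FABP5 by 0.98 and the acyl-CoA synthetase gene ACSL1 by 0.38 on the log2 scale, of which ACSL1 passed in 1 of 6 fits without 1 library (adjusted p up to 0.12 without starved library 1). SLC25A42, a mitochondrial coenzyme A carrier, fell from 4.95 ± 1.48 to 2.26 ± 0.499 CPM (log2 fold change -1.16), a call lost without starved library 2 (edgeR adjusted p = 0.063). PDK4 and FABP1, textbook targets of PPARA, had 0 counts in all 12 libraries. No gene of this list passed in edgeR's adjusted test for either inhibitor against solvent. With the block, 1 rose and 1 fell for DMA, beside 10.2% of all genes called, and 1 rose and 2 fell for C646, beside 7.86%.

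The lists of fatty acid use moved in both directions. Of 17 tested genes for fatty acid uptake, activation and malonyl-CoA, 3 rose and 3 fell with serum and glucose, at a median of -0.15. The genes called were 35.3% of the 17, beside 24.3% of all genes. SLC27A4, a fatty acid transport protein, rose by 0.73 on the log2 scale (edgeR adjusted p = 0.032), in only 1 of 6 fits without 1 library. The highest adjusted p was 0.1, without starved library 3. The other risers were DBI (0.41, in 3 of 6 fits, adjusted p up to 0.071 without solvent library 2) and ACSL1. The transport proteins SLC27A3 (-1.70) and SLC27A1 (-1.28) and the acyl-CoA binding gene ACBD3 (-0.44) fell, SLC27A1 from 60.2 ± 15.3 to 25.3 ± 6.81 CPM. The call for SLC27A3 was lost without starved library 1 (edgeR adjusted p = 0.066), and ACBD3 turned to 0.13 with spike-in scaling. With that scaling 3 genes of the list rose and none fell, beside 22.4% of all genes called (3227 higher and 189 lower).

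Of 22 tested mitochondrial beta-oxidation genes beyond ACADVL and ACAA2, 3 rose and 2 fell, at a median of 0.05. The risers were ECI2 (0.60), an isomerase for unsaturated fatty acids, ETFA (0.41), which carries electrons from the dehydrogenases, and the hydratase gene ECHS1 (0.31). Each of these 3 passed in 2 of 6 fits without 1 library, with adjusted p up to 0.17 without starved library 2 for ECI2, 0.11 without solvent library 1 for ETFA and 0.15 without starved library 1 for ECHS1. SLC25A29, a mitochondrial carrier of basic amino acids once described as carnitine carrier-like, fell by 1.14 and the dehydrogenase gene ACAD11 by 0.55 on the log2 scale. ACAD11 passed in 4 of 6 such fits (adjusted p up to 0.066 without solvent library 3) and was at 0.03 with spike-in scaling. Under that scaling 3 genes of the list rose and none fell, beside 22.4% of all genes called (3227 higher and 189 lower). With the usual scaling the 5 genes called were 22.7% of the 22, beside 24.3% of all genes.

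Of 17 tested peroxisomal genes, CROT and PEX11A rose and none fell, 11.8% of the list, beside 24.3% of all genes called. CROT, which exports shortened acyl chains as carnitine esters, rose from 10.5 ± 1.86 to 19.8 ± 2.33 CPM (log2 fold change 0.89 ± 0.19 SE, edgeR adjusted p = 0.004), and PEX11A by 0.71, lost in 4 of 6 fits without 1 library (adjusted p up to 0.14 without solvent library 3). The DMA and C646 libraries held CROT at 18.9 ± 0.837 and 21.2 ± 3.64 CPM, near the solvent level.

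Of 15 tested genes of lipid droplets and lipolysis, 4 rose and 1 fell with serum and glucose, at a median of 0.16. The genes called were 33.3% of the 15, beside 24.3% of all genes. The 4 that rose were G0S2, HILPDA, the droplet protein PLIN3 (0.68) and the seipin gene BSCL2 (0.92). BSCL2 passed in 1 of 6 fits without 1 library (adjusted p up to 0.18 without starved library 1). G0S2 and HILPDA are also on the list of PPAR targets, and ACSL1 is on 2 lists, so the counts are not independent. PLIN4, another droplet coat protein, fell from 2.78 ± 0.484 to 0.882 ± 0.223 CPM (log2 fold change -1.68 ± 0.37 SE, edgeR adjusted p = 0.005). With spike-in scaling 6 genes of the list rose and none fell, beside 22.4% of all genes called (3227 higher and 189 lower). PLIN2 itself did not pass edgeR's adjusted threshold in any of the 6 comparisons with the usual scaling. For DMA against solvent 1.75% of all genes were called. DGAT2, an enzyme of triglyceride synthesis, was the only gene of all 7 lists called there. It measured 6.52, 6.08 and 10.8 CPM with DMA and 17.2, 16 and 16.6 CPM with solvent (log2 fold change -1.10 ± 0.20 SE, edgeR adjusted p = 0.021), and the call was lost in 3 of 6 fits without 1 library (adjusted p up to 0.12 without DMA library 2) and with spike-in scaling (-0.84, edgeR adjusted p = 0.52).

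**Figure D4:**
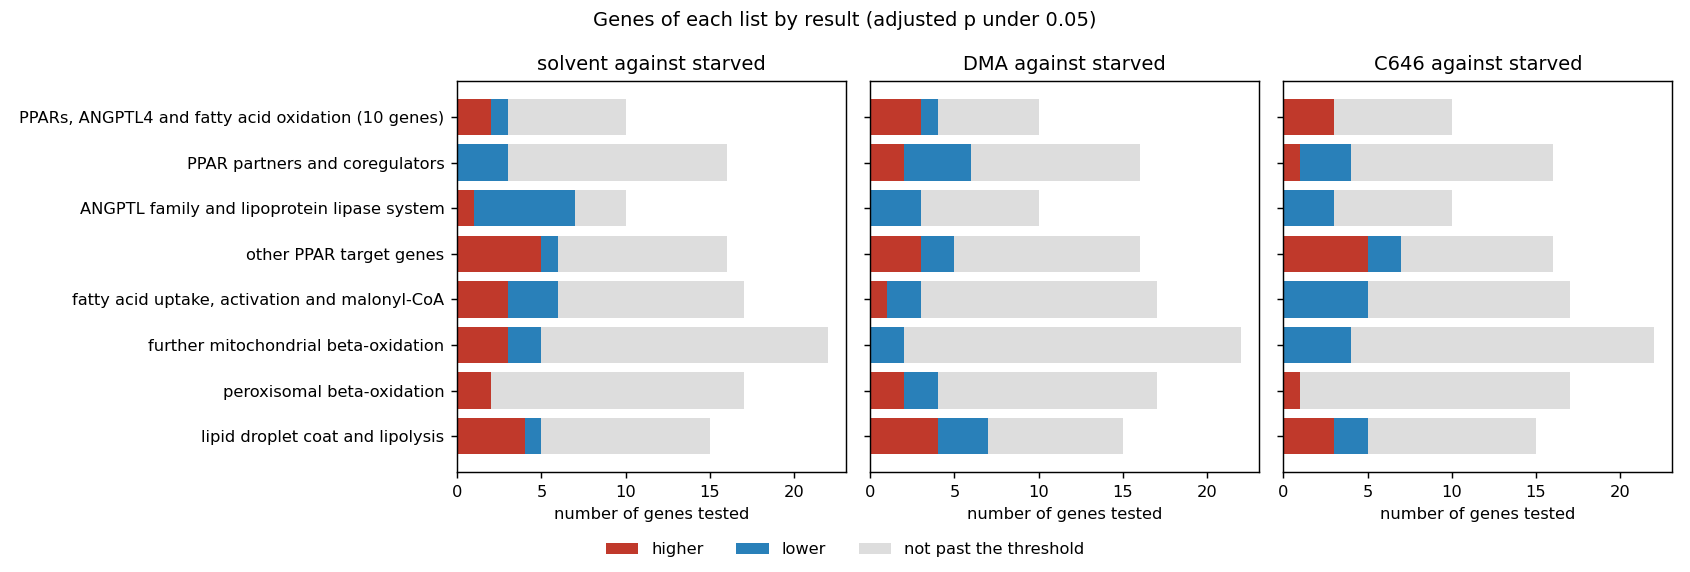
Number of genes tested in each list (horizontal axes) by edgeR result against starved cells, for solvent, DMA and C646. The 3 panels share the starved libraries. For the ANGPTL family and lipoprotein lipase system 1 gene rose and 6 fell with solvent, and 3 fell with DMA and with C646. Of all genes, 24.3% were called with solvent, 26.9% with DMA and 24.6% with C646.

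Genes with a pattern most like 3 of the 10 were listed by the root mean square difference of centred log2 CPM over the 12 libraries among 10776 genes. For ANGPTL4 these were ID3 (0.826), IL27RA (0.83), RGS4 (0.905), S1PR3 (0.923) and LIF (1.03), where the median gene was at 1.94. For CPT1A they were RBM23 (0.0889), EWSR1 (0.093), RBBP5 (0.0986), PSMC5 (0.109) and HIF1AN (0.11), with the median gene at 0.331. For PLIN2 they were POLR3F (0.151), SLC35E3 (0.16), RIOK3 (0.172), DHRS7B (0.177) and DCTD (0.177), with the median gene at 0.416. The measure grows with the size of a gene's own variation, so the 3 sets of values are not comparable with each other. None of the other 9 genes was among those nearest to ANGPTL4, CPT1A or PLIN2.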

How the data were processed

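Per the labels' protocols, poly-A RNA of 12 libraries (4 groups of 3) was prepared with a stranded mRNA kit. The submitters' processing notes name Trimmomatic 0.36, STAR 2.7.0e and the build GRCh38.p10. The quantifier, the annotation release and the strandedness of the counting were not given in the sources used here. Each deposited table lists, per the file headers, a length, an effective length, an estimated count and a TPM value for 182164 sequences, among them 92 spike-in controls.

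From the deposited estimated counts, 181808 transcripts were matched by identifier to GENCODE 29 and summed to 43481 genes, and the sums were rounded to whole numbers. The design had assumed gene counts. The 264 unmatched sequences held 0.0923 to 0.146% of the counts and spike-ins 0.527 to 1.28%. Deposited TPM values were summed per gene to compare genes. Testing used edgeR 4.0.16 in R 4.3.3: TMM factors (0.951 to 1.02), a minimum count of 10 and total of 15, 1 quasi-likelihood fit of all 12 libraries, and Benjamini-Hochberg adjustment over 15263 genes with a threshold of 0.05. SE and 95% intervals come from that fit, log2 CPM for principal components, pairing and likeness used a prior count of 2, and the procedure was tested on simulated data.

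Alternatives were DESeq2 1.42.0 (size factors and Wald test), no filter, a filter at 1 CPM, the compared groups only, library number as a block, spike-in scaling, leaving out each library and, chosen after seeing the data, protein-coding transcripts only and an effective-length offset. Numbers were taken to pair groups where all 3 same-number correlations of deviations from group means were over 0.1. This held for 5 of the 6 comparisons (0.128 to 0.483) and not for solvent and starved (0.0957, 0.33 and 0.182). The 10 genes and all lists were chosen with earlier results of these data known. The text names all 10 genes, and from each list the largest rise and fall past the threshold and the genes behind counts of 5 or fewer. For likeness it names the 5 nearest genes with a symbol and a mean log2 CPM of at least 2, leaving out clone names. Other list genes, among them those listed at 0, were named after their values were seen. Values of some single list genes are not reported here.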

Additional observations from a re-analysis of the deposited data

How the results depend on the processing

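Over 6 comparisons and all alternatives, the values of the 10 genes kept direction and side of the threshold in 803 cases, with 57 reversed, 31 stronger and 9 weaker. The cause was not tested. ANGPTL4 was called against starved cells in every setting. With the library number as a block the counts of all genes called rose from 267 to 1560 for DMA against solvent, from 185 to 1199 for C646 against solvent and from 441 to 1498 for DMA against C646. For solvent against starved the same-number correlation of library 1 (0.0957) just missed the limit of 0.1 set for pairing. The block there gave 5451 genes in place of 3704 and called CPT2 (0.54, edgeR adjusted p = 0.02). Each starved library correlated best with its own number in every other group. Each solvent library did so in the DMA and C646 groups, and each DMA library in the C646 group. The best match was not looked up in the reverse direction. The block changed no call of the 10 genes other than those given. In the same order for DMA and C646 against solvent and DMA against C646, spike-in scaling gave 91, 100 and 120 genes, fitting only the compared groups 31, 71 and 140, and DESeq2's Wald test 1080, 891 and 1044. The splits into higher and lower with spike-in scaling were 85 and 6, 84 and 16, and 53 and 67, beside 112 and 155, 124 and 61, and 144 and 297. No filter gave 455 and 348 for the inhibitors against solvent, and the length offset 103 for DMA against solvent and 279 for DMA against C646. Spike-in scaling gave 6574 for DMA against starved (6439 higher, 135 lower, beside 2126 and 1983) and 5220 for C646 against starved (5096 and 124, beside 1968 and 1782). Leaving out 1 library gave 2269 to 3450 genes for solvent against starved, 1 (without DMA library 2) to 286 for DMA against solvent, 24 (without solvent library 1) to 135 for C646 against solvent and 180 to 316 for DMA against C646.

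Signs turned with spike-in scaling for PPARG in solvent against starved (0.47), for ANGPTL4 (0.15), CPT1A (0.07) and ACAA2 (0.07) in DMA against solvent, ANGPTL4 in DMA against C646 (0.01), CPT2 in DMA against starved (0.77), and PPARA (0.15) and CPT2 (0.71) in C646 against starved. With protein-coding transcripts only they turned for ACADVL in solvent against starved (-0.16), DMA against solvent (-0.14), C646 against solvent (-0.06), DMA against starved (-0.30) and C646 against starved (-0.22), for ANGPTL4 in DMA against solvent (0.05), CPT2 in DMA against C646 (-0.15) and PLIN2 in C646 against solvent (-0.00). PLIN2 there was also at -0.01 without a filter, with the block and with only the compared groups. ANGPTL4 in C646 against solvent was at -0.03 with the length offset, and PPARG in C646 against starved at -0.01 with the block.

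Leaving out 1 library turned signs within these ranges. For solvent against starved they were -0.11 to 0.22 for PPARD, -0.03 to 0.09 for ACADVL and -0.05 to 0.32 for PLIN2. For DMA against solvent the range was -0.39 to 0.50 for ANGPTL4. For C646 against solvent they were -0.46 to 0.65 for ANGPTL4, -0.04 to 0.13 for PPARD, -0.08 to 0.29 for PPARG and -0.22 to 0.18 for PLIN2. For DMA against C646 they were -0.49 to 0.41 for ANGPTL4, -0.10 to 0.36 for PPARG, -0.13 to 0.21 for CPT2, -0.46 to 0.00 for SLC25A20 and -0.00 to 0.40 for PLIN2. For DMA against starved they were -0.08 to 0.34 for PPARG, -0.19 to 0.16 for CPT2 and -0.06 to 0.19 for ACAA2. For C646 against starved they were -0.06 to 0.28 for PPARD, -0.22 to 0.15 for PPARG, -0.18 to 0.09 for CPT2 and -0.10 to 0.31 for PLIN2. Depth limited genes at 0, where 3 counts correspond to 0.105 to 0.203 CPM.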
